A study of Mus musculus with 6 samples.

Results

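The transcripts of 8 glutathione S-transferase genes, Gsta4, Gstm1, Gstm2, Gstm5, Gstp1, Gstt1, Gstt2 and Gsto1, of the 29742 gene names on the array, were read with 10 of the 41174 non-control probes on each array. The probes were all those whose gene name in the array files was one of the 8 symbols, and this rule uses no measured value. They filled 19 of 41534 non-control spots per array, because the Gsta4 probe was printed 10 times. Gstm1 and Gstp1 had 2 probes each, of which the brighter is called (a) and the other (b), and the remaining genes had 1 probe.

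The cells were primary mouse embryonic fibroblasts from embryonic day 15, either wild type or homozygous for WrnΔhel, an in-frame deletion that removes part of the helicase domain of the mouse Werner syndrome gene. Mice of both genotypes shared a mixed genetic background. On 2 arrays, cRNA of wild type cells exposed to 0.5 mM H2O2 for 1 hour and harvested 24 hours later carried Cy5, and cRNA of untreated wild type cells carried Cy3. A further 2 arrays had the same layout with mutant cells, and 2 arrays, replicates 3 and 4, compared the genotypes directly without treatment. The study describes the arrays as biological duplicates without saying how many embryos stood behind a culture, so the p-values measure the spread between these samples only, and since no dyes were swapped a probe's dye preference enters every ratio.

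Feature Extraction, the scanner software, marked between 0.40% and 22.6% of the spots of an array as outliers, and these spots were left out. Cy3 stood well above background on 75.8% to 90% of the spots and Cy5 on 41.5% to 69.2%. Wild type replicate 2 had the most marks, 12 of its 19 transferase spots among them, and mutant replicate 2 had 8 of 19 marked. Wild type replicate 1 had 2 and mutant replicate 1 had 1, whereas the direct arrays of untreated cells had 0. All 7 fibroblast markers examined, such as Col1a1 and Vim, were well above background in each of the 4 RNAs, with summed intensities of 49100 to 50722 in wild type and 73805 to 91210 in mutant cells on the direct arrays (marked spots kept).

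Glutathione S-transferases join the thiol tripeptide glutathione to electrophilic compounds, among them products of lipid peroxidation, and the conjugates are pumped out of the cell by ABC transporters. The cytosolic enzymes fall into classes named alpha, mu, pi, theta and omega after their sequences, and they act as dimers. In many cell types part of the family is transcribed through antioxidant response elements bound by NRF2, a transcription factor that electrophiles and oxidants release from its inhibitor KEAP1.

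RefSeq promoter windows of the GRCm38.p6 build were found for 6 of the 8 genes, and not for Gsta4 and Gstt2. The 250 bases before the annotated start are shown for the mu genes and for Gstp1. These are the genes with a window that are reported below as higher in untreated mutant cells. Gsta4 was higher there too but had no window. Capitals mark matches, on either strand, to TGACNNNGC or TGAGNNNGC, forms of the antioxidant response element core, or to TGANTCA, the AP-1 motif. The windows lie before Gstm1 (chr3:108017819-108018068, minus strand, the downstream one of 2 annotated starts), Gstm2 (chr3:107986421-107986670, minus strand), Gstm5 (chr3:107895604-107895853, plus strand) and Gstp1 (chr19:4037913-4038162, minus strand).
Gstm1: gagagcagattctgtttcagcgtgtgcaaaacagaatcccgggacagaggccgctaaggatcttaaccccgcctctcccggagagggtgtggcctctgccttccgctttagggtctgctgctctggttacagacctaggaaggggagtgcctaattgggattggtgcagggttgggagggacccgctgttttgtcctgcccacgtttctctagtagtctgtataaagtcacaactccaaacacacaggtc
Gstm2: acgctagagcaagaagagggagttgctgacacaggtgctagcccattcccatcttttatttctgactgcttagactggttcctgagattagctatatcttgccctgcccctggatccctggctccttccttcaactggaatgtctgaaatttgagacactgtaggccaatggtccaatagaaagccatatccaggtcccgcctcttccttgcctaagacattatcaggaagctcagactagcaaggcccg
Gstm5: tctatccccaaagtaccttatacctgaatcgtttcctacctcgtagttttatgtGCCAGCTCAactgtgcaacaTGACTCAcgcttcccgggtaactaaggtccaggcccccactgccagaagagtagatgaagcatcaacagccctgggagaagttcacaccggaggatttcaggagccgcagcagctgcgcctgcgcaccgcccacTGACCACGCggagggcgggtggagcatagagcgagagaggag
Gstp1: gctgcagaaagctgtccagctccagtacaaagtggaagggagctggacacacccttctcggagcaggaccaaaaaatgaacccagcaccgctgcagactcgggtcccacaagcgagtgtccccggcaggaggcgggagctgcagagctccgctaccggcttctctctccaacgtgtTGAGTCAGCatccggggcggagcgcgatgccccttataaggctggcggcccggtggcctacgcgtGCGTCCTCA
The window of Gstm5 held TGACCACGC from 42 to 34 bases before the start, TGAGCTGGC on the other strand from 196 to 188, and an AP-1 motif from 176 to 170. That of Gstp1 held TGAGTCAGC from 74 to 66 bases before the start, which overlaps an AP-1 motif, and TGAGGACGC on the other strand from 9 to 1. Neither Gstm1 window nor that of Gstm2 or Gsto1 held a match, and the Gstt1 window held TGAGAGAGC. Among all 32851 promoter windows of this length, 10.2% held TGACNNNGC, 14.4% held TGAGNNNGC and 6.75% held TGANTCA.

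The direct arrays asked whether the transferases differ between the genotypes without treatment. The labels put wild type cRNA in Cy5 on these arrays, whereas the study's own list of mutant over wild type ratios equals Cy5 over Cy3. The latter direction was used throughout, and that of the labels would turn the sign of each value from these arrays. Over 726 other probes that passed the study's thresholds here, 99.0% had the same sign in the Cy3 channel of the treatment arrays, where the genotypes do not share a slide (Pearson's r = 0.939 across probes, which are not independent). For that comparison the genotypes of the treatment arrays had to be taken as labelled.

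With this direction, Gsta4, Gstm1, Gstm2, Gstm5 and a Gstp1 probe were higher in untreated mutant than in untreated wild type cells. In limma's fit of all 6 arrays, 6 of the 10 transferase probes passed an adjusted p of 0.05, from 5 genes and all of them higher. Of all 41099 probes tested, 19.6% passed and 9.83% passed as higher. At an unadjusted p under 0.05, 9 of the 10 passed, beside 35.9% of all probes. The median log2 ratio of the transferase probes was 1.01, and that of all probes was -0.0017. By the study's thresholds, which take an adjusted p below 0.005 and a mean log2 intensity above 6, 2 of the 10 passed, both of Gstm1, beside 1.80% of all probes.

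Gsta4 is an alpha class enzyme known for its activity towards hydroxynonenal, a product of lipid peroxidation. Its log2 intensity was 7.54 and 7.33 in untreated wild type cells and 8.55 and 9.27 in untreated mutant cells on the same 2 arrays. The mutant values lay above both wild type values, although the difference on replicate 4 was nearly as large again as that on replicate 3. The log2 ratios were 1.01 and 1.94, a mean of 1.47 (SE 0.25, 2.78-fold, adjusted p = 0.0098). The SD over the 10 spots of the probe was 0.16 on replicate 3 and 0.13 on replicate 4, below the gap between the arrays.

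The mu class genes lie together on chromosome 3, and Gstm1 encodes an abundant enzyme that conjugates a broad range of substrates. Probe (a) of Gstm1 read 8.30 and 8.38 in wild type and 10.73 and 10.34 in mutant cells. The log2 ratios were 2.43 and 1.96 for probe (a), a mean of 2.19 (SE 0.19, 4.58-fold, adjusted p = 0.0024). For probe (b) they were 1.87 and 1.86, a mean of 1.87 (SE 0.16, 3.65-fold, adjusted p = 0.0023). The 2 probes of the gene thus pointed the same way on both arrays. Gstm2 read 8.99 and 8.77 in wild type against 11.39 and 10.25 in mutant cells, with log2 ratios of 2.41 and 1.48 and a mean of 1.94 (SE 0.27, 3.85-fold, adjusted p = 0.0119). It did not pass with Feature Extraction's own log ratios (1.97, adjusted p = 0.134) or with normexp background correction (1.84, adjusted p = 0.0516).

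Gstm5 differed less than Gstm1 and Gstm2. Its intensity was 9.16 and 9.19 in wild type and 9.86 and 10.04 in mutant cells, with log2 ratios of 0.70 and 0.85 and a mean of 0.78 (SE 0.16, 1.71-fold, adjusted p = 0.0245). The intensities of mutant cells were higher on both arrays. The call ended when any 1 of the 4 treatment arrays was left out (adjusted p of 0.0678 without either wild type array and 0.0545 without either mutant array) and when the direct arrays were fitted on their own (adjusted p = 0.188), although the ratio itself comes from the direct arrays alone. The mu genes are close in sequence, and whether a probe also reads a relative was not tested here.

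Gstp1 encodes the pi class enzyme, which besides conjugation binds and restrains the stress kinase JNK. Probe (a) read 11.57 and 11.16 in wild type against 12.15 and 11.76 in mutant cells. Its log2 ratios of 0.58 and 0.60, a mean of 0.59 (SE 0.16, 1.51-fold), did not pass (adjusted p = 0.0511). Probe (b) had log2 ratios of 1.23 and 0.73, a mean of 0.98 (SE 0.17, 1.97-fold), and passed (adjusted p = 0.0119). Probe (a) passed as well in some other settings, among them the fit with marked spots kept (0.65, adjusted p = 0.0232). Neither probe passed when the direct arrays were fitted on their own (adjusted p = 0.312 for probe (a)). Gstp2 is a neighbour with a nearly identical transcript, and whether the probes also read it was not tested.

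The theta class genes were dim. Gstt1 had log2 ratios of 0.05 and 2.02. The mean of 1.04 (SE 0.40, adjusted p = 0.113) rested on replicate 4, where its spot was well above background in neither dye. In mutant cells its probe and that of Gstt2 were not well above background on the direct arrays, so no fold is given for them. Gstt2 had log2 ratios of 0.02 and 0.06 (mean 0.04, adjusted p = 0.918). Gsto1, of the omega class, whose enzyme reduces rather than conjugates, was the brightest of the 8 genes and the one with values below 0. Its intensity was 13.27 and 12.99 in wild type and 12.93 and 12.26 in mutant cells, with log2 ratios of -0.34 and -0.73. The mean of -0.53 (SE 0.19, 95% interval -0.99 to -0.07) did not pass (adjusted p = 0.121). With median centring in place of loess the mean was 0.19.

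**Figure D1:**
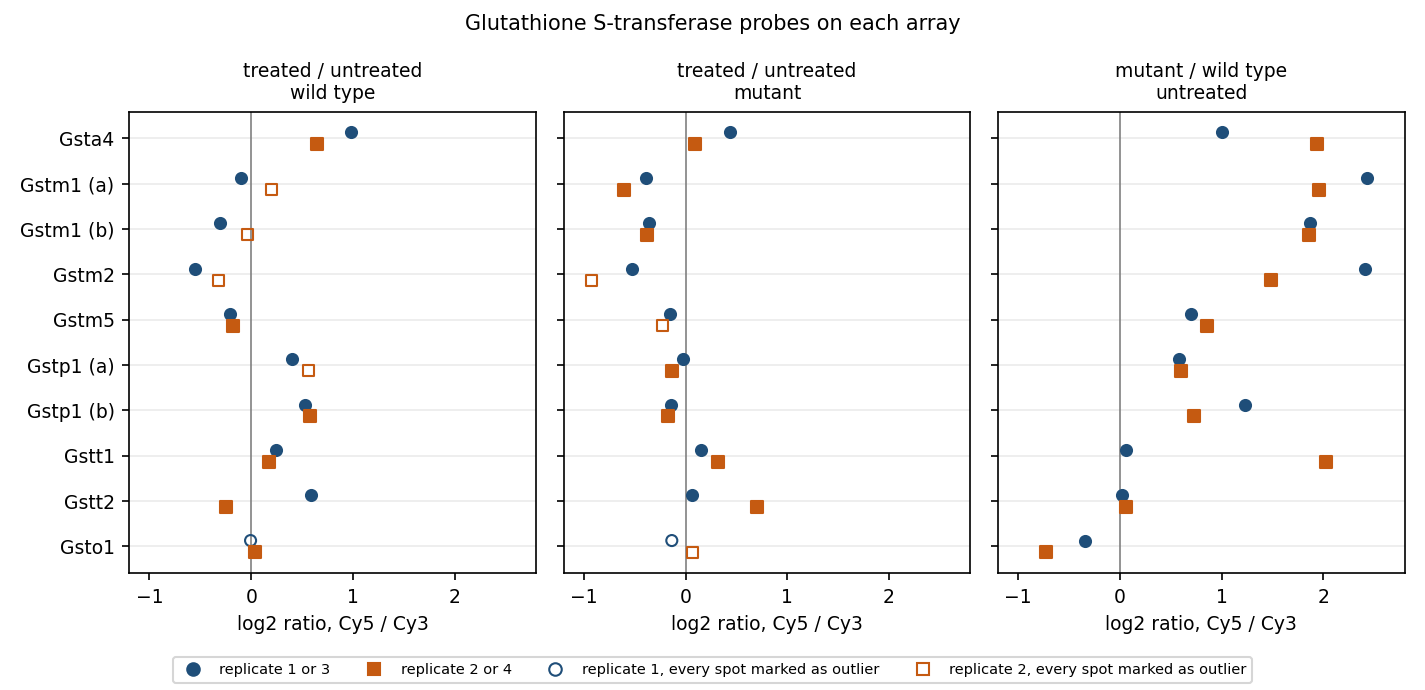
The log2 ratio of Cy5 over Cy3 (x axis) is plotted for each of the 10 transferase probes (rows) on each of the 6 arrays, with treated over untreated cells in the left and middle panels and untreated mutant over wild type cells, in the direction of the study's list, in the right panel. Open symbols are values from spots marked as outliers. In the right panel Gsta4, the mu genes and Gstp1 lie above 0 on both arrays, from 0.58 to 2.43, and Gsto1 lies at -0.34 and -0.73.

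Markers of other cell types were set beside these differences. The summed intensity of 5 genes taken as mast cell markers was 944 to 979 in wild type and 127 to 168 in mutant cells on the direct arrays (marked spots kept). Of these genes, Mcpt8 alone passed in limma's fit (log2 ratio -4.83, adjusted p = 0.000543). Cpa3 (0.10), Kit (-0.44), Fcer1a (0.15) and Ms4a2 (0.18) did not pass. The lower sum is therefore not read as a lower mast cell signal. The sums of 6 macrophage markers overlapped, at 497 to 565 in wild type and 452 to 697 in mutant cells, as did those of 5 hepatocyte markers, at 146 to 186 and 143 to 210, and of 5 skeletal muscle markers, at 4169 to 4581 and 3816 to 4403. The 4 epithelial markers summed to 236 to 271 in wild type and 144 to 167 in mutant cells. Among them Krt18 alone passed in limma's fit (-1.45, adjusted p = 0.0042). Krt8 (0.02), Cdh1 (0.25) and Epcam (-0.66) did not pass. The part of these genes, and of fibroblast content, in the transferase differences was not tested, and in bulk RNA more cells of a type and more RNA per cell cannot be told apart.

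The treatment arrays gave a second reading of untreated cells, within Cy3. Gstm1 probe (a) read 8.71 and 8.43 in wild type and 10.22 and 10.36 in mutant cells with marked spots kept, and probe (b) read 8.36 and 8.22 against 9.88 and 10.01. Neither overlapped between the genotypes, but with so few values this often happens without any difference, here and for the other genes. The share of all probes without overlap is not given. With marked spots left out, the difference was 1.64 (SE 0.52) for probe (a) and 1.65 (SE 0.51) for probe (b) on the log2 scale, with adjusted p of 0.27 and 0.261 in limma's fit. With marked spots left out, Gsta4 read 7.90 and 8.63 in wild type and 8.87 and 9.56 in mutant cells, a difference of 0.95 (SE 0.43, adjusted p = 0.466). Its mutant values were also the higher ones. In this channel 0 of 9 transferase probes passed and 4 had an unadjusted p under 0.05, beside 0.534% and 10.2% of 40267 probes. The 4 were Gstm1 (a), Gstm1 (b) and Gsta4, higher in mutant cells, and Gstt2, which was lower (-1.03, SE 0.45).

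For several genes the size in this channel depended on whether marked spots were kept, a choice that also changed the normalized values of unmarked spots. Gstm2 differed by 0.78 with them left out and by 1.30 with them kept, Gstm5 by -0.09 and 0.70, Gstp1 (a) by 0.22 and 0.94, and Gstp1 (b), which had no marked spot, by 0.69 and 0.94. With them left out, the 1 mutant value of Gstm5, at 9.56, lay between the wild type values of 9.49 and 9.80. With them kept, the mutant values of Gstm2 (10.83 and 10.58) and Gstm5 (9.88 and 10.16) lay above those of wild type cells (9.72 and 9.10, and 9.51 and 9.15), again with 0 probes passing. Wild type replicate 2 was then low for Gstp1 (a), at 10.64 against 11.76 on replicate 1. Gsto1 had no value in mutant cells with the marked spots left out, and differed by -0.18 with them kept. Gstt2 was well above background on 1 of the 2 mutant arrays, at 4.75 against 4.88 and 5.71 in wild type cells with marked spots left out. On the other mutant array it read 3.77, not well above background, and the difference did not pass.

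**Figure D2:**
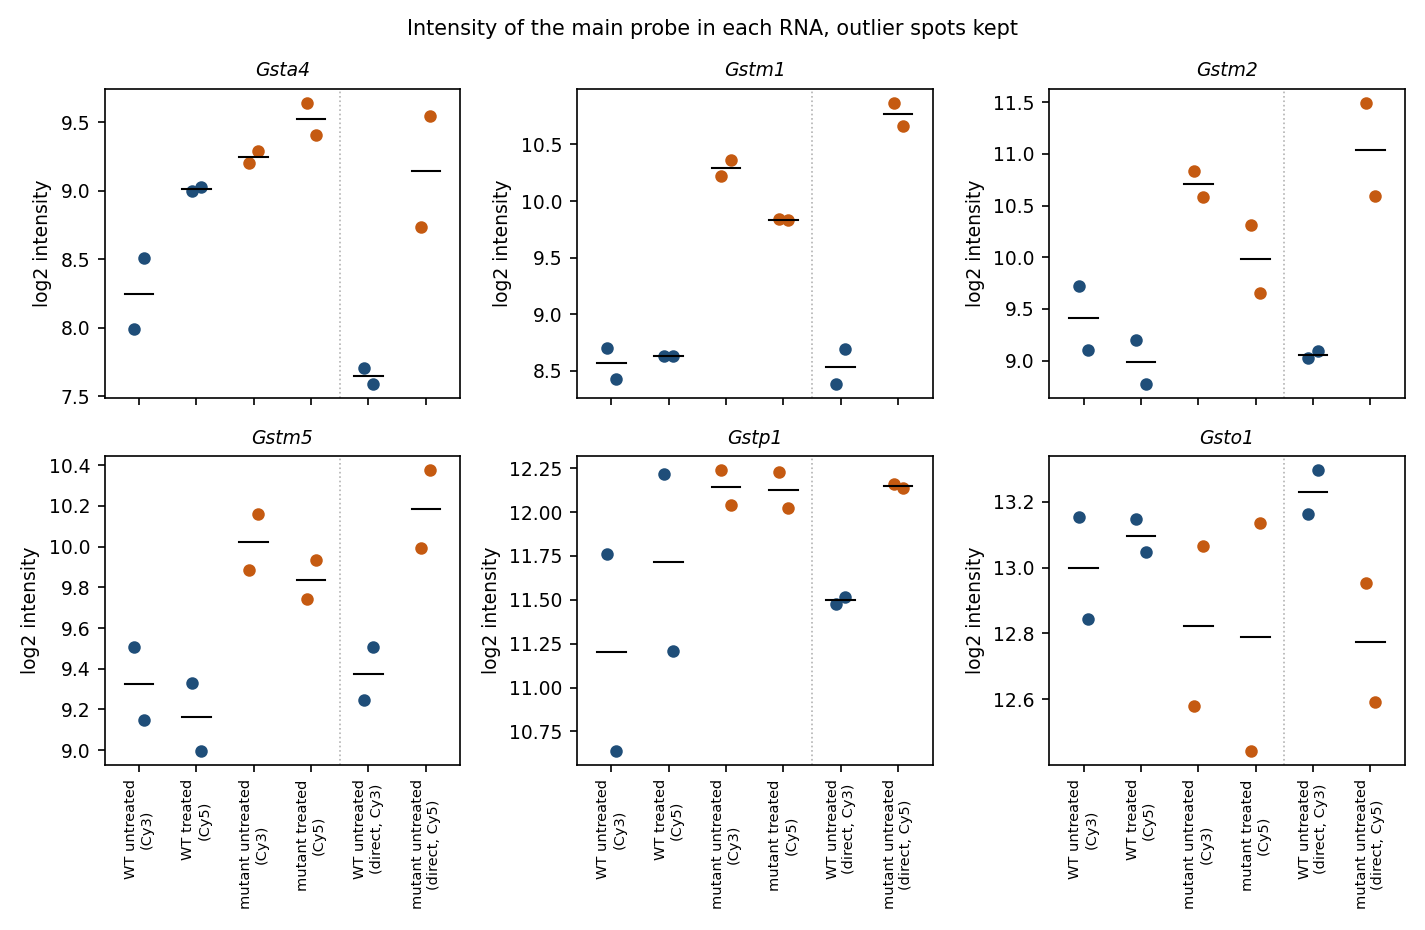
The log2 intensity (y axis, own scale per panel) of the main probe of 6 transferase genes is plotted in each RNA, with 1 point per array, a line at the mean of 2 arrays, wild type in blue and mutant in orange, and marked spots kept. The untreated mutant points of Gsta4, Gstm1, Gstm2, Gstm5 and Gstp1 lie above the untreated wild type points both within Cy3 of the treatment arrays and on the direct arrays, to the right of the dotted line, where Gstm1 read 8.39 and 8.69 in wild type and 10.87 and 10.66 in mutant cells.

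The next question was whether H2O2 changed the transferases. In treated wild type cells 0 of 10 probes passed, beside 0.258% of 40303 probes, and 2 had an unadjusted p under 0.05, those of Gsta4 and Gstp1 (b), beside 20.0% of all probes. Gsta4 had log2 ratios of treated over untreated cells of 0.99 and 0.65, a mean of 0.82 (SE 0.25, 95% interval 0.23 to 1.40, 1.76-fold, adjusted p = 0.134). On replicate 2, 8 of its 10 spots were marked, and with all spots kept the ratio there was 0.52. Gstp1 (b) had ratios of 0.53 and 0.58, a mean of 0.56 (SE 0.17, adjusted p = 0.144), and probe (a) had 0.40 on replicate 1 and, from the marked spot, 0.57 on replicate 2. Both genes thus lay above 0 on each wild type array.

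Those 2 probes depended on how the spread was estimated. Gsta4 had an adjusted p of 0.0032 and Gstp1 (b) of 0.0122 when the wild type treatment arrays were fitted on their own, a setting in which 10115 of the 40303 probes passed. Leaving out replicate 3 or replicate 4 of the direct arrays gave 0.0040 and 0.0118 each time, with 9200 probes passing. The ratios themselves were the same in these fits.

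The mu genes had ratios near or below 0 in treated wild type cells. They were -0.10 for Gstm1 (a), -0.30 for Gstm1 (b) and -0.55 for Gstm2 on replicate 1, whose spots were marked on replicate 2 and read 0.20, -0.04 and -0.32 there. Gstm5 stood at -0.21 and -0.18. With median centring the means turned to 0.45 for Gstm1 (a), 0.03 for Gstm2 and 0.38 for Gstm5, and with it the median of all probes brighter than a log2 intensity of 9 was 0.53, against -0.05 with loess. Gsto1 stood at 0.04 on replicate 2, and at -0.01 from the marked spot of replicate 1.

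In treated mutant cells 0 of the 9 transferase probes with a value passed, 1 had an unadjusted p under 0.05, that of Gstm1 (a), and of all 41052 probes 0% and 12% did. Gsta4 had ratios of 0.44 and 0.09 (mean 0.26, SE 0.25, 95% interval -0.32 to 0.85, adjusted p = 0.728). Gstp1 (b) stood at -0.14 and -0.17 and Gstp1 (a) at -0.03 and -0.13. The Gsta4 ratios lay below both wild type ratios, and those of Gstp1 lay on the other side of 0. Gstm1 (a) had ratios of -0.39 and -0.60 (mean -0.50, SE 0.19, adjusted p = 0.396), and probe (b) stood at -0.36 and -0.38. With median centring Gstm1 (a) turned to 0.41, and the median of all probes brighter than a log2 intensity of 9 was then 1.00.

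The other mu genes also lay below 0 in mutant cells with loess, at -0.53 for Gstm2 and -0.15 for Gstm5 on replicate 1, and at -0.92 and -0.23 from the marked spots of replicate 2. Both spots of Gsto1 were marked, with ratios of -0.14 and 0.07. Gstt1 and Gstt2 were not well above background in treated mutant cells.

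The difference between the responses was tested directly, as the mutant response minus the wild type response. Of 9 transferase probes 0 passed, beside 0% of 40267, and 1 had an unadjusted p under 0.05, beside 5.94% of all probes. That probe was Gstp1 (b), with a difference of -0.71 (SE 0.25, 95% interval -1.30 to -0.13, adjusted p = 0.81). Gsta4 had a difference of -0.55 (95% interval -1.38 to 0.27) and Gstm1 (a) of -0.40 (-1.18 to 0.38), so these arrays leave room for differences of either sign in both genes.

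Treated mutant and treated wild type cells were compared within Cy5 of the treatment arrays, where 0 of 9 probes passed (0.368% of 40267) and 2 had an unadjusted p under 0.05, both of Gstm1 (9.0% of all probes). With marked spots kept, Gstm1 (a) read 8.63 and 8.63 in treated wild type and 9.84 and 9.83 in treated mutant cells, and probe (b) read 8.07 and 8.18 against 9.53 and 9.70. With marked spots left out the differences were 1.24 (adjusted p = 0.518) and 1.58 (adjusted p = 0.38). In the same setting Gsta4 read 8.89 and 9.28 against 9.31 and 9.65, a difference of 0.39 (SE 0.40, adjusted p = 0.815), beside 0.95 in untreated cells. Gstp1 (a) and (b) had differences of -0.27 and -0.02, and 0.41 and 0.20 with marked spots kept. The change from untreated to treated cells in these differences is what the test of the responses above measured.

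**Figure D3:**
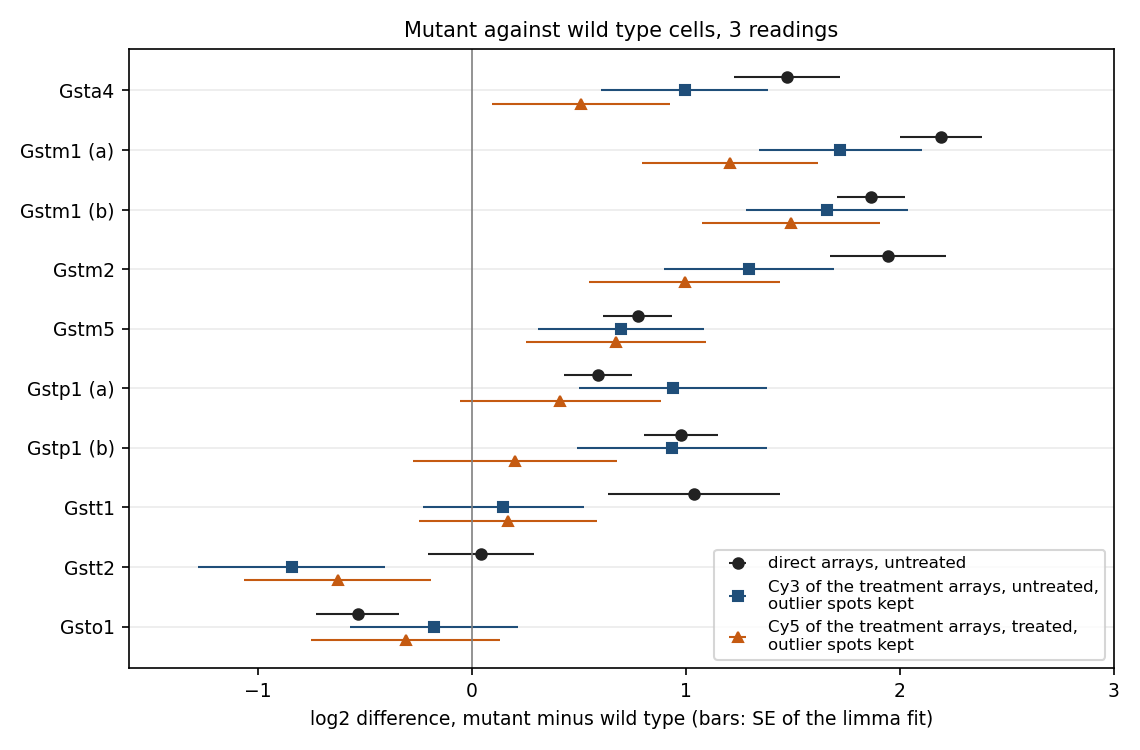
The log2 difference of mutant minus wild type cells (x axis, bars are the SE of limma's fit) is plotted for each transferase probe (rows) as read on the direct arrays with marked spots left out, and within Cy3 of untreated cells and Cy5 of treated cells with marked spots kept. Gstm1 lies between 1.21 and 2.19 in all 3 readings, and Gstp1 (b) lies at 0.98 and 0.94 in untreated and 0.20 in treated cells, where the channel values are 0.69 and -0.02 with marked spots left out.

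The dye preference of a probe could be read where both dyes carried untreated mutant RNA, as Cy5 of the direct arrays minus Cy3 of the mutant treatment arrays. It was -0.31 for Gsta4, 0.27 for Gstm1 (a), -0.08 for Gstm1 (b), -0.26 for Gstp1 (a) and 0.20 for Gstp1 (b), with a median of -0.08 over all probes. The cultures and slides differ in this reading as well, and it had no value for Gstm2, Gstm5 and Gsto1.

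Of the other glutathione transferases, 16 genes were on the array. Between untreated mutant and wild type cells 5 were higher and 3 lower, and 8 did not pass, with a median of 0.10. Over the whole array 19.6% of probes passed in this comparison, 9.83% as higher. The higher ones were the mu gene Gstm3 (2.24, adjusted p = 0.0065) and the microsomal Mgst3 (1.99, adjusted p = 0.0016) and Mgst1 (1.09, from replicate 3). The alpha genes Gsta1 (1.68, from replicate 4) and Gsta2 (0.70) were higher too, and Gsta2 was dim (mean log2 intensity 4.39). Mgst1 read 0.07 from the marked spot of replicate 4, and Gsta1 read 0.41 from that of replicate 3. The calls for Mgst1 and Gsta1 thus each rest on 1 direct array. Gstm4 was lower (-2.08, adjusted p = 0.0086), with ratios of -2.63 and -1.53, and so were Gsto2 (-0.64) and the dim Gstt4 (-0.54). Thus Gstm3 and Gstm4, of the same class and chromosome cluster, lay on opposite sides of 0, and within Cy3 of the treatment arrays they stood at 1.15 and -1.11. In that channel Mgst3 stood at 1.09, Gsta2 at 0.41 and Mgst1 at 0.06, and Gsta1 had no value. Gsto2 stood at -1.13 and Gstt4 at -0.90 there. Of these genes 0 passed in treated wild type cells (5 higher and 1 lower at an unadjusted p under 0.05), in treated mutant cells (1 and 0) and in the difference (0 and 3). The shares of all probes at that unadjusted threshold were 20%, 12% and 5.94%, in either direction.

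**Figure D4:**
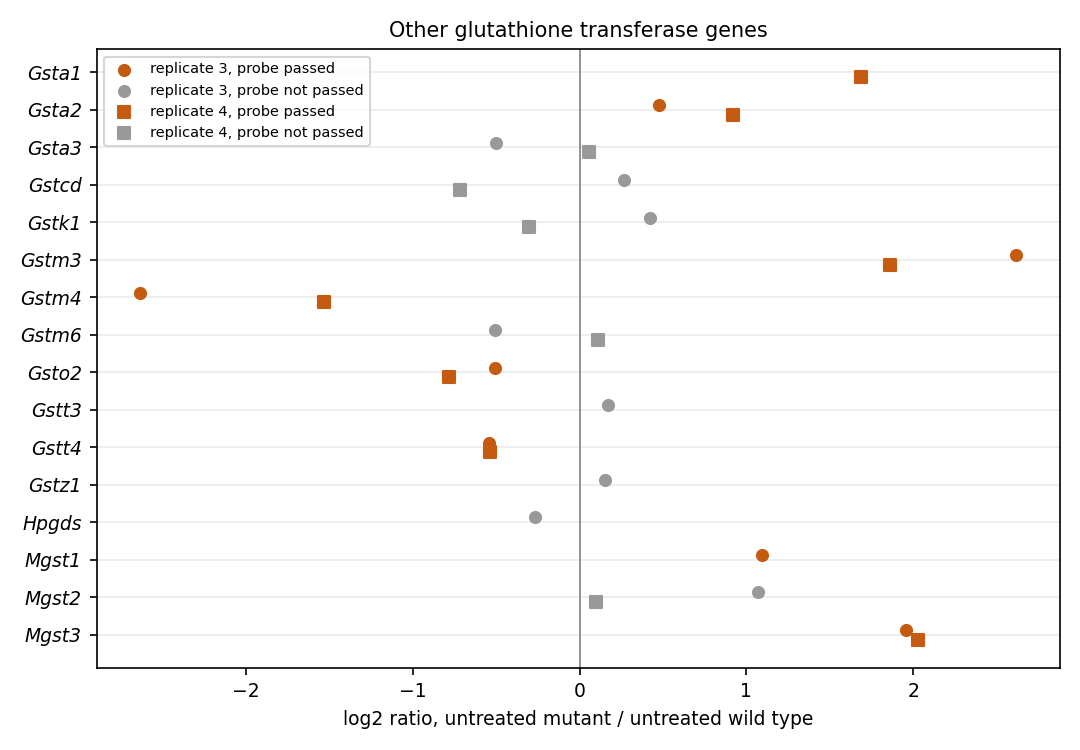
The log2 ratio of untreated mutant over untreated wild type cells (x axis) is plotted for the 16 other glutathione transferase genes (rows), with circles for replicate 3 and squares for replicate 4, and orange where the probe passed. Gstm3 at 2.62 and 1.86 and Gstm4 at -2.63 and -1.53 mark the ends, and the genes in grey did not pass.

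Genes that make and recycle glutathione numbered 23. In untreated mutant cells 7 were higher, 3 lower and 13 did not pass (median 0.05), beside 19.6% of all probes passing, 9.83% as higher. The subunits of the rate-limiting enzyme of glutathione synthesis were among the lower ones, Gclm at -1.37 (adjusted p = 0.0121) and Gclc at -0.60 (adjusted p = 0.0337), with Glrx, a glutaredoxin, at -1.27. Higher were Chac1 (2.33) and Chac2 (0.98 from replicate 3, and -0.35 from the marked spot of replicate 4), which degrade glutathione. Dpep1 (2.03) and Ggt5 (1.35), which take part in the breakdown of glutathione outside the cell, were also higher. So were Cth (0.97), which supplies cysteine, Pgd (0.95), a source of NADPH, and Txnrd3 (0.86). Within Cy3 of the treatment arrays, Chac1 stood at 1.31, Ggt5 at 0.97 and Pgd at 0.77. Dpep1 (0.15), Txnrd3 (0.12) and Cth (0.08) lay near 0 there, and Chac2 lay at -0.53. Gclm and Gclc stood at -1.04 and -1.28 in that channel, and Glrx had no value. Gss and Gsr, glutathione synthetase and reductase, stood at 0.19 and -0.20 and did not pass. In treated wild type cells 2 of the 21 with a value rose, beside 0.258% of all probes passing. These were Chac1 (3.18) and Cth (2.53), each with an adjusted p of 0.0229. In treated mutant cells and in the difference 0 passed (at an unadjusted p under 0.05, 1 higher and 3 lower, and 0 and 5). The shares of all probes at that unadjusted threshold were 12% and 5.94%.

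Genes that use glutathione or export its conjugates numbered 13. In untreated mutant cells 6 were higher and 2 lower (median 0.61), beside 19.6% of all probes passing, 9.83% as higher. The transporters Abcc4 (1.52, adjusted p = 0.003), Abcc5 (1.35, from replicate 3), Abcc3 (0.89) and Abcc1 (0.76) were higher. So were Hagh (2.05), which cleaves a glutathione thioester, and Ltc4s (1.34, ratios of 0.52 and 2.16), which makes a leukotriene conjugate. Abcc3 and Ltc4s were dim, with mean log2 intensities of 4.84 and 4.20. Ptges (-1.97) and Esd (-0.68) were lower. Within Cy3 of the treatment arrays, Abcc4 stood at 0.45, Abcc5 at 0.67, Abcc3 at 0.18 and Abcc1 at 0.44. Hagh stood at 0.82 there, Ltc4s at -0.06, Ptges at -1.85 and Esd at -0.96. Abcc4 alone passed in treated wild type cells (1.47, adjusted p = 0.0404), where 5 were higher at an unadjusted p under 0.05, and 0 passed in treated mutant cells (3 higher) and in the difference (0 higher and 1 lower). Across all probes, 20%, 12% and 5.94% had such an unadjusted p in these comparisons, in either direction.

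Of 21 genes of the NRF2 pathway, 5 were higher (Nqo1 at 2.31 from replicate 4, Nfe2l2, which encodes NRF2 itself, at 1.31, Sqstm1 at 1.23, Cbr3 at 0.98 and Aldh3a1 at 0.85) and 3 lower (Mafg at -1.24, Ftl1 at -1.17 from replicate 3, and -0.21 from the marked spot of replicate 4, and Me1 at -0.97) in untreated mutant cells. In that comparison of untreated cells 19.6% of all probes passed, 9.83% as higher. In treated wild type cells 0 of the 17 with a value passed, and 6 were higher and 0 lower at an unadjusted p under 0.05, beside 20.0% of all probes in either direction. In treated mutant cells 0 of 21 passed, and 5 were higher and 2 lower at that threshold, beside 12% of all probes. In the difference 0 of 17 passed and 0 had an unadjusted p under 0.05, beside 5.94% of all probes.

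The gene whose pattern was most like that of a transferase was to be sought for the brightest member, Gsto1, which lacked a value on 3 arrays. Among the genes whose brighter or single probe had a value on all 6 arrays Gsta4 was the brightest, and it was taken in place of Gsto1 after its values were seen. Gstp1 (b) was brighter and had 6 values, but is not the brighter probe of its gene. Among 6203 genes, the nearest by Euclidean distance over the 6 log2 ratios were Havcr2 (0.51), Dcaf4 (0.52) and the transcript TC964720 (0.54), with Pearson's r of 0.94, 0.95 and 0.94 over the 6 arrays.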

How the data were processed

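Whole Mouse Genome Agilent arrays of 2 colours were used as the authors deposited them, 1 scanner text file per array with 43790 spots, per the file headers from Feature Extraction, and the series table. Deposited intensity values were mean spot signals and local background medians, the deposited log10 ratio was Feature Extraction's own, and the authors' series table held log2 ratios (limma is named in the submitters' processing notes), equal to the ratios computed here with outlier spots kept (r of 0.9995 or more). The labels call the RNA total and the methods cytoplasmic. Local background was subtracted, outlier and control spots were left out, ratios were normalized by loess within arrays, and spots of a probe were averaged. limma 3.58.1 (R 4.3.3) fitted the 6 arrays with 1 coefficient per comparison and Benjamini-Hochberg adjustment over all probes (3 residual and 3.98 prior degrees of freedom). A probe passed below an adjusted p of 0.05. Channel intensities were Aquantile-normalized and compared within a dye over the 4 treatment arrays, whose images were extracted in 1 session, unlike those of the direct arrays. Scripts were tested on simulated data. Alternatives were normexp with an offset of 50, outlier spots kept, median centring, the deposited ratios, an intensity filter, fits on fewer arrays, a replicate block, the study's thresholds and a separate channel fit. Keeping marked spots in the channels and marker sums was added after the data were seen.

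The members and gene lists were chosen with earlier results of these data known. Named were all 8 members, list genes whose brightest probe passed in a fit, and the 3 genes nearest to a member. Gene symbols are those of the arrays, with 20716 probes renamed through RefSeq. The number of arrays limits the precision.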

Additional observations from a re-analysis of the deposited data

Results flagged for a closer look

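Gstp1 probe (b) had log2 ratios of treated over untreated cells of 0.53 and 0.58 on the wild type arrays and of -0.14 and -0.17 on the mutant arrays, so that the genotypes lay on opposite sides of 0. The test of the difference gave -0.71, which did not pass over all probes (limma adjusted p = 0.81). With median centring, Gstp1 (a) stood above 0 in mutant cells as well (0.89).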

How the results depend on the processing

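The 6 transferase probes that passed between untreated mutant and wild type cells became 2 by the study's thresholds and 0 in the separate channel fit with a dye term, which held 4 of the 10 probes (Gsta4, Gstp1 (b), Gstt1 and Gstt2). By the dye direction of the labels all 6 were lower. Fitted on the direct arrays alone, 4 passed, beside 2057 of all 41099 probes, and Gstm5 (adjusted p = 0.188) and Gstp1 (b) were lost. Without replicate 3 the comparison rested on 1 array, with log2 ratios of 0.60 for Gstp1 (a), 2.02 for Gstt1 and -0.73 for Gsto1. A single array gives no spread between the samples of this comparison, so calls from it are not given. In treated wild type cells, the 0 became 2 with the comparison fitted on its own arrays, and 0 to 2 without each array in turn. Numbers of transferase probes passing in the other comparisons stayed at 0 in each setting run. The replicate numbers 1 and 2 of the treatment arrays showed no pairing in the log2 ratios (r = -0.046 between the deviations of the genotypes over 29913 probes). A culture effect shared by both dyes cancels in such ratios, so whether the samples were paired is not settled by this value. With replicate number as a block, 5 passed between the untreated genotypes (Gstm5 was lost, adjusted p = 0.0885) and 0 in each treatment and the difference. Over all probes, the number passing between the untreated genotypes was 8061 in the main setting, 9225 with marked spots kept, and as low as 402. It ranged from 0 to 10115 in treated wild type (104 in the main setting), from 0 to 4380 in treated mutant cells (0) and from 0 to 513 in the difference (0). The share of higher probes among those passing moved from 46.2% to 84.6% in treated wild type cells and from 50.1% to 60.8% between the untreated genotypes with median centring, and to 74.9% and 59.3% with Feature Extraction's ratio.

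These values turned sign, and 0 of them passed in either setting. With median centring, the log2 ratio of treated mutant cells was 0.41 for Gstm1 (a), 0.77 for Gstm2, 1.10 for Gstm5, 0.89 for Gstp1 (a), -0.17 for Gstt1 and -0.098 for Gstt2. That of treated wild type cells was 0.45 for Gstm1 (a), 0.033 for Gstm2 and 0.38 for Gstm5, that between the untreated genotypes was 0.19 for Gsto1 and -0.018 for Gstt2, and the difference was -0.22 for Gstt1 and -0.30 for Gstt2. With marked spots kept, or with the authors' table, treated wild type cells had 0.062 and 0.063 for Gstm1 (a), and the difference was -0.30 for Gstm2 and -0.023 for Gstm5. With Feature Extraction's ratio, the difference was -0.065 for Gstt1 and -0.13 for Gstt2, and Gstt2 stood at -0.019 between the untreated genotypes. In the separate channel fit, Gstt1 stood at -0.21 and -0.28 in treated wild type and mutant cells and -0.071 in the difference, and Gstt2 at -0.45, -0.32 and, between the untreated genotypes, -0.73. Without each array in turn, the difference ranged from -0.059 to 0.11 for Gstt1 and from -0.21 to 0.63 for Gstt2, turning where replicate 2 of either genotype was left out, and Gstt2 ranged from -0.25 (without replicate 1) to 0.59 in treated wild type cells. Under median centring the median of all probes brighter than a log2 intensity of 9 was 0.53 in treated wild type cells, 1.00 in treated mutant cells and 0.48 between the untreated genotypes. The causes of the turns were not tested. With the separate channel fit, Gsta4 had 1.36 between the untreated genotypes (adjusted p = 0.165).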
